A study of Bos taurus with 57 samples.

Results

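ENSBTAG00000002444 and ENSBTAG00000016746 are 2 of the 24616 genes counted in RNA sequencing libraries of 3 tissues of Holstein Friesian bull calves, namely the testes, the anterior pituitary and the arcuate nucleus. They were selected on measured values, the log2 fold changes between diets in these libraries, because their levels leaned lower on the low than on the high plane of nutrition in each of the 3 tissues. Those diet differences are therefore given as descriptions without a test. The levels in the 3 tissues and the ratio of the 2 genes were tested. The choice compared planes and not tissues, but it used the same libraries, low plane values included. The tests between tissues are therefore not independent of the choice. None of the 24616 identifiers could be paired with a gene name in the reference table used here, so both genes are called by their Ensembl identifiers, their functions and sequences are not given, and the labelled tissues could not be checked against named markers.

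The arcuate nucleus, at the base of the hypothalamus, senses metabolic state and sets the drive to the neurons that release gonadotrophin-releasing hormone. That hormone makes the anterior pituitary secrete luteinising hormone and follicle-stimulating hormone, which act on the Leydig and Sertoli cells of the testes. Together these tissues form the hypothalamic-pituitary-testicular axis, and feeding in the first months of life is known to bear on when a bull calf reaches puberty.

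The study asked how early feeding affects transcription along this axis. The calves were male and of 1 breed, and were fed as individuals, on milk replacer with concentrate and, once weaned, on concentrate, before slaughter at 126 days of age. The labels give growth of 1.08 kg/day on the high plane and 0.5 kg/day on the low plane, while the design text states a target of 1.2 kg/day for the first and the same rate for the second. The arcuate nucleus had 10 high plane and 10 low plane libraries, the anterior pituitary 9 and 10, and the testes 10 and 8. The 3 tissues were taken from the same 20 calves, but the labels do not tie libraries of different tissues to a calf. The tissues were therefore compared as separate sets of libraries, and p-values between tissues take no account of shared calves.

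Total counts ran from 898979 to 32009433 reads over the 57 libraries, and the shallowest was the high plane arcuate library C22. No pair of libraries in a group agreed within sampling noise, as the lowest chi-square per degree of freedom was 2.76. The library labelled A48 is a testes library by its tissue label, although its code letter is that of the pituitary libraries, and it lay within the other high plane testes libraries for both genes. A library score, averaged over the log2 CPM (read counts normalised to library size) of 200 genes that had been picked from the tissues other than the library's own, fell into separate sets, at or below 1.58 in 13 libraries and at or above 3.41 in the rest. Those genes rose most, within diets, along the first dimension of a multidimensional scaling of the libraries. The direction of that dimension was set so that high plane testes libraries lay higher on average. In the testes 5 of 8 low plane and 1 of 10 high plane libraries were in the lower set, which is not independent of that choice of direction. Levels below are CPM scaled by the trimmed mean of M-values (TMM), and because the tissues are mixtures of cells, fewer cells of a type and less RNA per cell cannot be told apart.

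In the anterior pituitary, ENSBTAG00000002444 ran from 19.2 to 28.1 CPM on the high plane, with a median of 23.3, and from 2.63 to 16.8 CPM on the low plane, with a median of 5.29. All 10 low plane libraries lay below all 9 high plane libraries. The low plane libraries were the more spread of the groups, and their highest value came from library A27, with the next highest, A47, at 9.83 CPM. Every low plane library lay below every high plane library in 0.139% of the 14411 genes tested in this tissue, a contrast that the choice of the gene had used. Group means were 23.03 ± 2.94 CPM (SD, n = 9) for the high plane libraries and 6.39 ± 4.17 CPM (SD, n = 10) for the low plane libraries. The fitted log2 difference, low minus high, was -1.82 (SE 0.271), a level 3.54-fold higher on the high plane.

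For ENSBTAG00000016746 the pituitary libraries ran from 2.44 to 7.58 CPM on the high plane, with a median of 5.31, and from 0.658 to 5.42 CPM on the low plane, with a median of 0.899. Here 9 of 10 low plane libraries lay below all high plane libraries, and the exception was A27, which lay above the high plane median. The lowest high plane library, A57, lay at 2.44 CPM and the next at 4.68 CPM. The second highest low plane library was at 2.14 CPM, so A27 alone overlapped the high plane range. The choice of the gene had used this contrast. How many genes separate once their most overlapping library is set aside was not counted. Group means were 5.43 ± 1.44 CPM (SD, n = 9) and 1.55 ± 1.46 CPM (SD, n = 10). The log2 difference was -1.79 (SE 0.379), or 3.45-fold.

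Both genes thus had their highest low plane value in the same library. A27 also had the highest low plane value in 39 of the other 69 genes that were called lower on the low plane in this tissue at a false discovery rate (FDR) below 0.05, where 0.493% of genes tested were so called, and it reached the high plane range in 29 of those 69. The other 9 low plane libraries had the highest value in 0 to 17 of these genes and reached that range in 0 to 22. Of those 69 genes, A27 lay above the high plane median in 1 and A47 in 5. The 69 genes were called from these same libraries, A27 included. How often A27 had the highest low plane value over all genes tested was not counted. Among the 10 genes called higher on the low plane (0.0694% of genes tested), A27 lay above all high plane libraries in 8. The other 9 low plane libraries did so in 7 to 10. Without A27 the log2 difference was -2.12 for ENSBTAG00000002444 and -2.26 for ENSBTAG00000016746.

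**Figure D1:**
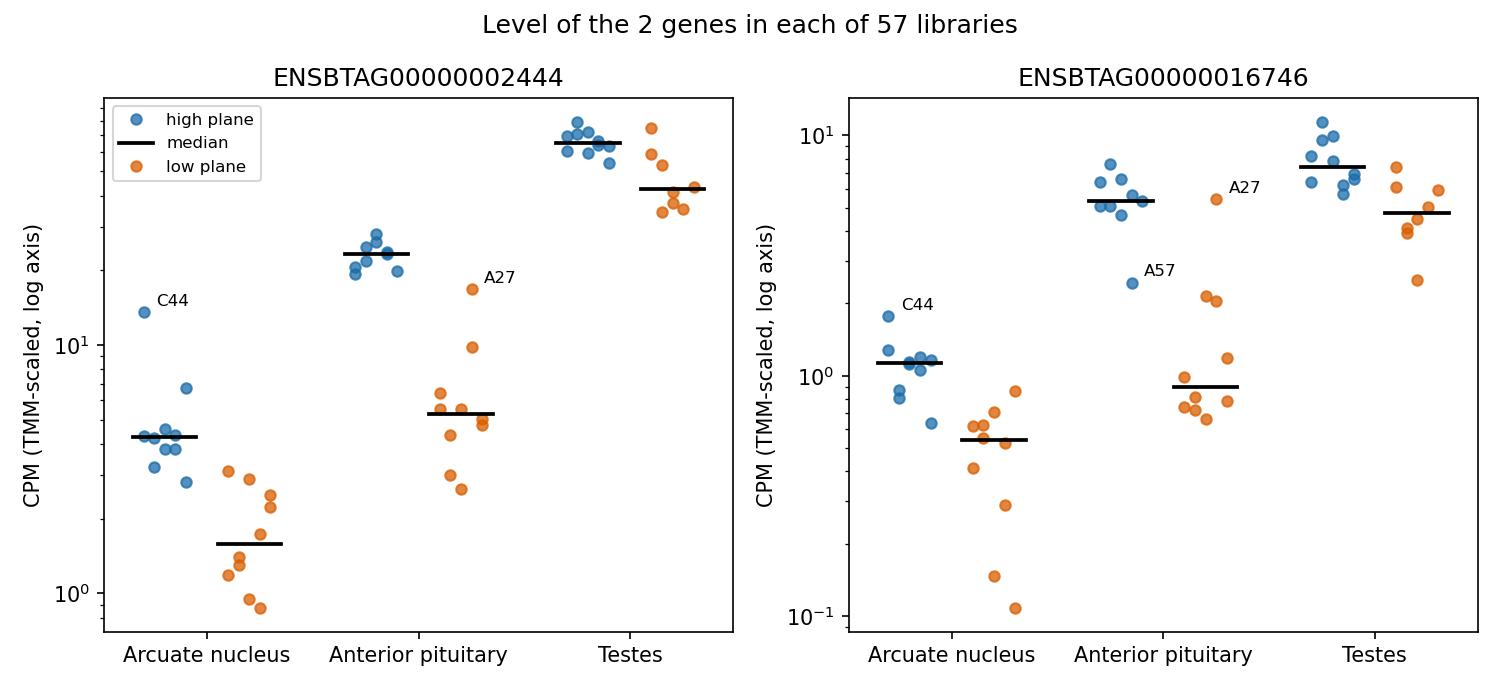
Level of each gene in CPM (TMM-scaled, log axis) in every library by tissue, with blue points for the high plane, orange points for the low plane and black bars for group medians. The low plane medians sit lower in each tissue, with no overlap for ENSBTAG00000002444 in the anterior pituitary, and library A27 is the low plane pituitary point nearest to or inside the high plane range.

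In the arcuate nucleus, ENSBTAG00000002444 ran from 2.82 to 13.6 CPM on the high plane, with a median of 4.27, and from 0.877 to 3.12 CPM on the low plane, with a median of 1.58. Of the low plane libraries 8 of 10 lay below all high plane libraries, and the groups overlapped only through high plane library C37 and low plane libraries C41 and C55. No gene of the 14757 tested in this tissue, this one included, had every low plane library below every high plane library. How many genes had 8 of 10 low plane libraries so placed was not counted. Library C44 stood far above the other high plane libraries, the next of which was at 6.70 CPM. Group means were 5.15 ± 3.14 CPM and 1.82 ± 0.812 CPM (SD, n = 10 each). The log2 difference was -1.53 (SE 0.301), or 2.88-fold, and it was -1.24 without C44.

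ENSBTAG00000016746 was at the edge of detection in the arcuate nucleus, with 1 to 60 reads in a library. It ran from 0.637 to 1.78 CPM on the high plane, with a median of 1.13, and from 0.108 to 0.866 CPM on the low plane, with a median of 0.539. Again 8 of 10 low plane libraries lay below all high plane libraries, C37 was the lowest and C44 the highest high plane library, and C8 and C55 were the low plane libraries inside the high plane range. The lowest value, in low plane library C34, rested on 1 read, with an exact 95% Poisson interval of 0.00275 to 0.604 CPM, and that of the high plane library C22 also rested on 1 read, with an interval of 0.0204 to 4.49 CPM. These intervals cover counting error only. Group means were 1.10 ± 0.309 CPM and 0.485 ± 0.244 CPM (SD, n = 10 each), and the log2 difference was -1.19 (SE 0.283), or 2.28-fold.

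The arcuate libraries also differed in how many reads they held of genes typical of the pituitary libraries. The summed level of the 50 genes that lay furthest above the arcuate nucleus in the pituitary ran from 47.6 to 581 CPM on the high plane, with a median of 147, and from 92.4 to 1588 CPM on the low plane, with a median of 463. Both members are themselves higher in the pituitary. For the 20 arcuate libraries, this sum on the log2 scale and the level of each gene were taken as deviations from their group means. Pearson's r between these deviations was 0.302 for ENSBTAG00000002444 and 0.715 for ENSBTAG00000016746. Those values share the library's depth and composition, and the part of this sum in the diet difference was not tested. Without the 4 low plane libraries above 900 CPM, among them C8 and C55, the log2 differences were -1.60 and -1.67. All 4 lay above the low plane mean of ENSBTAG00000016746 (0.485 CPM), so leaving them out could only widen the difference of that gene.

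The testes had the highest levels and the smallest diet differences. ENSBTAG00000002444 ran from 54.2 to 78.9 CPM on the high plane, with a median of 65.2, and from 34.3 to 74.7 CPM on the low plane, with a median of 42.3. Of the low plane libraries 6 of 8 lay below all high plane libraries, while B31 and B15 lay among them, and B42 was the only 1 of 10 high plane libraries above all low plane libraries. Every low plane library lay below every high plane library in 0.0849% of the 15310 genes tested in the testes, and this gene was not among them. How many genes had 6 of 8 low plane libraries so placed was not counted. Group means were 65.9 ± 7.15 CPM (SD, n = 10) and 47.2 ± 14.05 CPM (SD, n = 8), and the log2 difference was -0.49 (SE 0.144), or 1.41-fold.

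ENSBTAG00000016746 ran in the testes from 5.72 to 11.3 CPM on the high plane, with a median of 7.38, and from 2.51 to 7.39 CPM on the low plane, with a median of 4.75. Here 5 of 8 low plane libraries lay below all high plane libraries, B31, B15 and B26 did not, and 5 of 10 high plane libraries lay above all low plane libraries. B31 lay just above the high plane median. Group means were 7.87 ± 1.87 CPM (SD, n = 10) and 4.94 ± 1.52 CPM (SD, n = 8), and the log2 difference was -0.68 (SE 0.198), or 1.61-fold. Of the 8 low plane libraries 5 had a score in the lower set, and with the 3 others against 9 high plane libraries the log2 differences were -0.39 for ENSBTAG00000002444 and -0.56 for ENSBTAG00000016746. The part of the score in these differences was not tested. Within the testes, Pearson's r between deviations from the group mean of each gene and of the score was -0.009 and -0.108 (n = 18).

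Across all genes tested, the median log2 difference between planes in arcuate libraries was -0.0101, that in pituitary libraries was 0.0175 and that in testes libraries was -0.0144. A log2 difference below 0 in all 3 tissues was found in 1101 of the 13467 genes tested in all of them (8.18%). As a description of the choice, no other gene had differences at or below those of ENSBTAG00000002444 in all 3 tissues, nor at or below those of ENSBTAG00000016746 (1 gene, or 0.00743%, each).

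**Figure D2:**
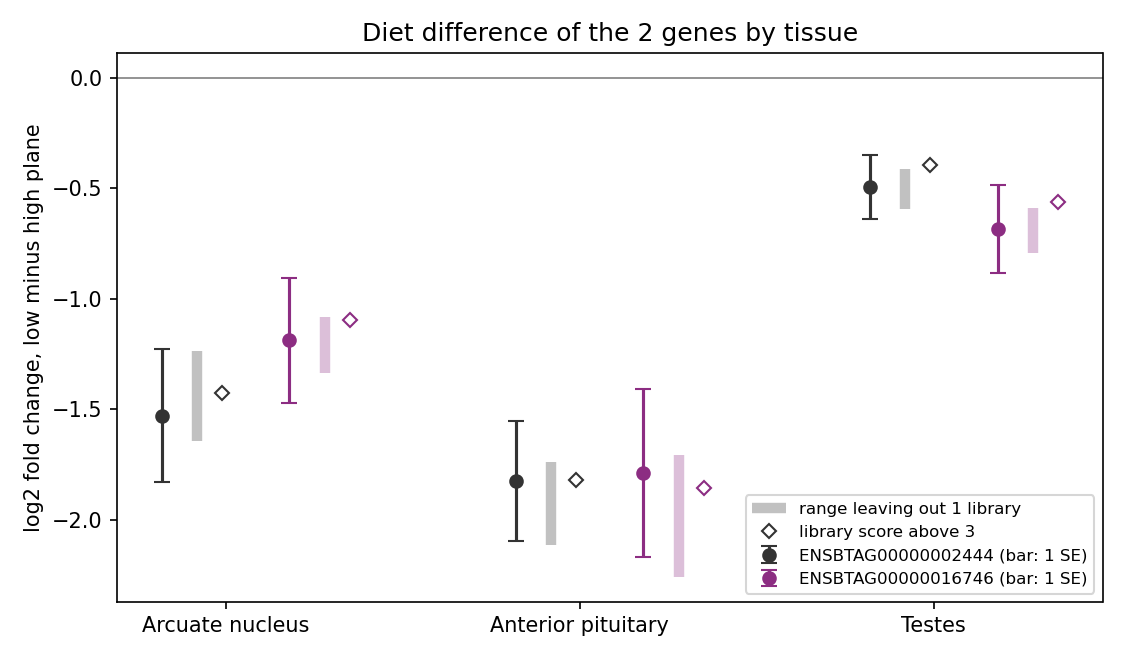
Log2 fold change, low minus high plane, of both genes in each tissue, with points for the fit of each tissue and bars for 1 SE, shaded bands for the range when 1 library is left out, and open diamonds for libraries with a score above 3. All values lie below 0, between -2.26 and -0.39, and those of the testes are nearest to 0.

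The levels of both genes were in the order testes, anterior pituitary, arcuate nucleus. With both planes weighted equally in 1 fit of all 57 libraries, both genes were called in all 3 contrasts of tissues. Of the 16476 genes tested, 36.4% were called higher in the pituitary than in the arcuate nucleus, 34.1% in the testes than in the pituitary and 41% in the testes than in the arcuate nucleus. Calls were thus common among all genes, and the size of each difference is given beside the share of genes that were higher by as much. All p-values for this comparison are from edgeR's quasi-likelihood test with Benjamini-Hochberg adjustment over all genes.

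ENSBTAG00000002444 was 17.9-fold higher in the testes than in the arcuate nucleus (log2 difference 4.16, SE 0.197, FDR = 2.89e-26), and 3.46% of all genes were higher by as much. It was 4.59-fold higher in the testes than in the pituitary (2.20, SE 0.184, FDR = 7.52e-16), where 10.8% of genes were higher by as much, and 3.91-fold higher in the pituitary than in the arcuate nucleus (1.97, SE 0.181, FDR = 2.9e-14), where 5.30% were. All 18 testes libraries, at 34.3 CPM or more, lay above all 19 pituitary libraries, the highest of which had 28.1 CPM, and above all arcuate libraries. Such a separation was found in 9.38% of genes between testes and pituitary and in 9.15% between testes and arcuate nucleus. Pituitary and arcuate libraries overlapped, with 10 of 19 pituitary libraries above all arcuate libraries, and 3.87% of genes had all pituitary libraries above all arcuate libraries.

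ENSBTAG00000016746 was 8.27-fold higher in the testes than in the arcuate nucleus (log2 difference 3.05, SE 0.220, FDR = 1.75e-18), which 6.25% of genes matched or passed. All 18 testes libraries lay above all arcuate libraries. Between testes and pituitary the difference was smaller, at 2.13-fold (1.09, SE 0.206, FDR = 5.41e-06), which 20.4% of genes matched or passed, and 5 of 18 testes libraries lay above all pituitary libraries. The pituitary was 3.87-fold above the arcuate nucleus (1.95, SE 0.214, FDR = 8.73e-12), which 5.37% of genes matched or passed, with 12 of 19 libraries above all arcuate libraries.

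These steps between tissues were not of the same size on both planes. Between testes and pituitary the log2 difference of ENSBTAG00000016746 was 0.52 among high plane libraries (FDR = 0.0177) and 1.70 among low plane libraries (FDR = 0.000338), and that of ENSBTAG00000002444 was 1.51 and 2.93. The gap between planes in these steps is the diet difference seen from the other side, and was not tested. The values of both planes had entered the choice of the genes. The low plane steps and their FDR are thus not independent of that choice. On the high plane the neighbouring levels of ENSBTAG00000016746 thus came closest, with medians of 5.31 CPM in the pituitary and 7.38 CPM in the testes.

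The genes differed in how the testes stood out, which the ratio of their reads in each library shows without any scaling between libraries. This ratio was chosen after seeing the data, and how often other pairs of genes differ so between tissues was not computed. Reads of ENSBTAG00000002444 per read of ENSBTAG00000016746 ran from 1.67 to 23 in arcuate libraries, with a median of 4.10, from 2.59 to 9.67 in pituitary libraries, with a median of 4.25, and from 6.23 to 16.4 in testes libraries, with a median of 8.28. The value of 23 came from arcuate library C34, with its single read of ENSBTAG00000016746, and the 9.67 from pituitary library A57. As gene lengths were not given, the ratio was compared between tissues and not read as the level of one gene relative to the other.

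By a permutation test over libraries on the log2 ratio (two-sided, 100000 permutations, 3 comparisons), the geometric mean ratio was 2.03-fold higher in the testes than in the pituitary and 2.29-fold higher than in the arcuate nucleus, each with p = 2e-05, the smallest that this number of permutations can give (adjusted p = 3e-05). All 18 testes libraries lay above the median of the pituitary and that of the arcuate nucleus. Of these, 7 lay above all pituitary libraries and 1 above all arcuate libraries. Pituitary and arcuate nucleus differed by 0.17 on the log2 scale, which did not pass the test (adjusted p = 0.389). Within planes the log2 difference between testes and pituitary was 0.97 on the high plane and 1.10 on the low plane by exact permutation tests (adjusted p = 0.000422 and 0.000274), and that between testes and arcuate nucleus was 1.04 and 1.37 (adjusted p = 0.000162 and 0.00384). Median ratios on the high and low plane were 4.11 and 3.48 in the arcuate nucleus, 4.11 and 4.54 in the pituitary, and 8.06 and 8.30 in the testes.

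**Figure D3:**
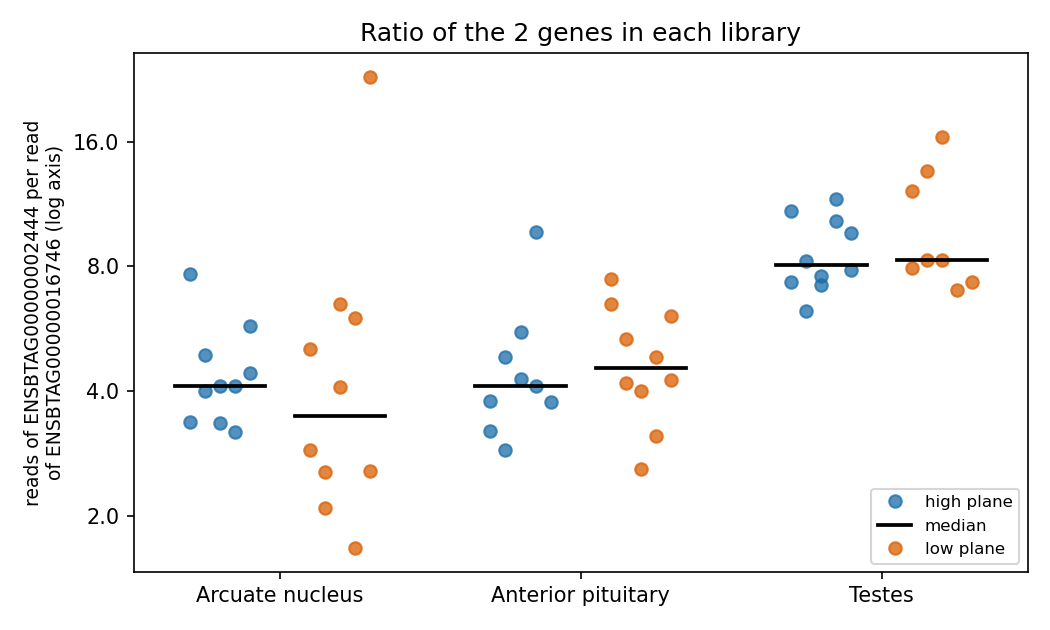
Reads of ENSBTAG00000002444 per read of ENSBTAG00000016746 in every library (log axis) by tissue, with blue points for the high plane, orange points for the low plane and black bars for group medians. The testes libraries sit between 6.23 and 16.4, with medians near 8 on both planes, and most arcuate and pituitary libraries sit lower.

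Within groups, libraries that were high for one gene tended to be high for the other. Pearson's r of the deviations of log2 CPM from the group means was 0.566 over all 57 libraries and Spearman's rho was 0.448, where the points share the depth and composition of a library. By tissue, r was 0.397 over 20 arcuate, 0.767 over 19 pituitary and 0.448 over 18 testes libraries. A27 and C44 carried part of this, as r was 0.411 over all libraries without them and 0.547 in the pituitary without A27. Among the 9 high plane pituitary libraries r was -0.0895, against 0.879 among the 10 low plane libraries, A27 included. The other tissues did not share this split by plane. On the high and low plane r was 0.818 and 0.207 in the arcuate nucleus, and 0.456 and 0.465 in the testes.

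**Figure D4:**
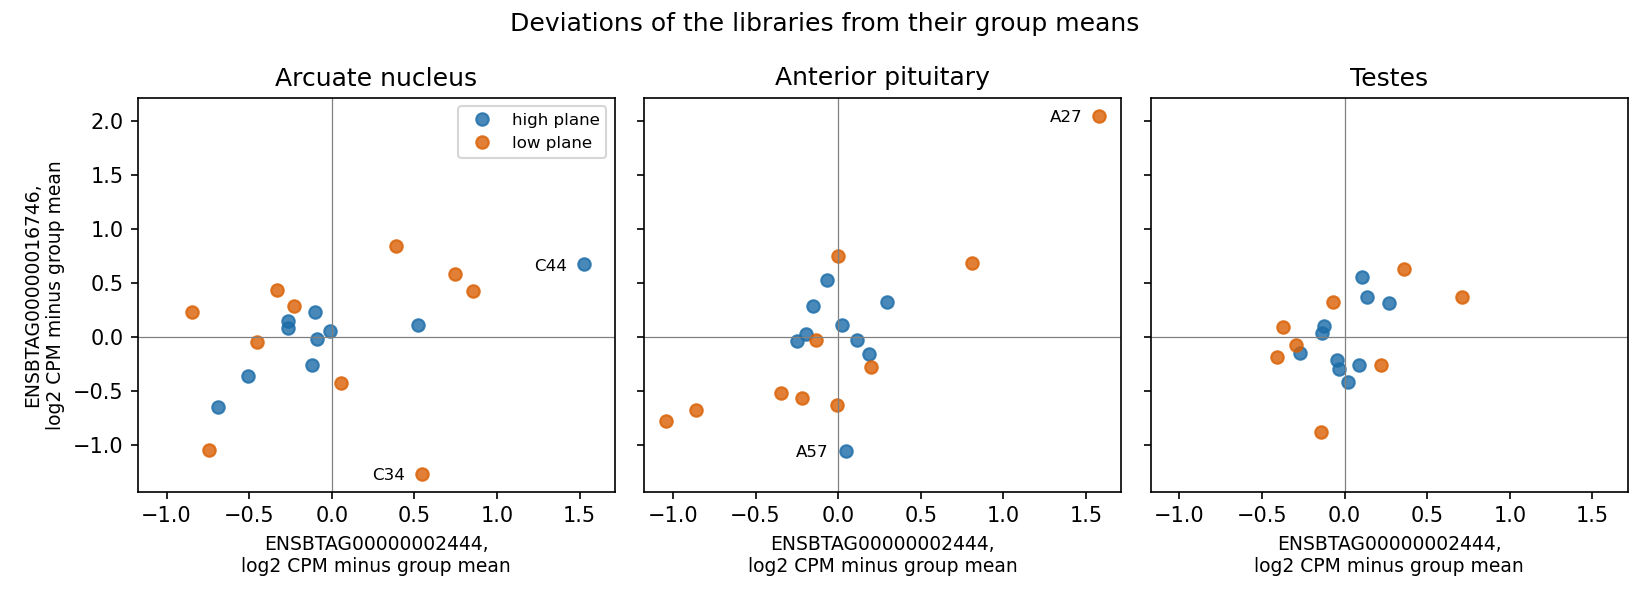
Deviation of each library from its group mean in log2 CPM, for ENSBTAG00000002444 on the horizontal and ENSBTAG00000016746 on the vertical axis, by tissue, with blue points for the high and orange points for the low plane. A27 lies alone at the upper right of the pituitary panel, and C44 lies furthest right in the arcuate panel.

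The biological coefficient of variation of ENSBTAG00000002444 was 0.451, 0.414 and 0.241 in the arcuate nucleus, pituitary and testes, and that of ENSBTAG00000016746 was 0.335, 0.549 and 0.301, beside medians over all genes of 0.344, 0.400 and 0.366. In the testes both genes were below that median, and in the other tissues each gene was above it in 1 or both, with 28.5% of genes more spread than ENSBTAG00000002444 in the arcuate nucleus and 28.5% more spread than ENSBTAG00000016746 in the pituitary.

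Over the 13466 other genes tested in all 3 tissues, the genes whose deviations were most like those of ENSBTAG00000002444 over the 57 libraries were ENSBTAG00000024449 (r = 0.668), ENSBTAG00000014326 (0.643), ENSBTAG00000019262 (0.640), ENSBTAG00000008758 (0.636) and ENSBTAG00000007860 (0.625). In the pituitary alone their median r with it was 0.843, against 0.234 in the testes. Their log2 differences between planes had a median of -2.02 in pituitary, -0.70 in arcuate and -0.10 in testes libraries. ENSBTAG00000016746 ranked 8 among the genes most like ENSBTAG00000002444 by Pearson's r, 21 by Spearman's rho and 16 with the library score removed.

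In the other direction ENSBTAG00000002444 ranked 3 among the genes most like ENSBTAG00000016746 by Pearson's r, 11 by Spearman's rho and 7 with the library score removed. The others of the first 5 were ENSBTAG00000014435 (r = 0.580), ENSBTAG00000006882 (0.578), ENSBTAG00000009819 (0.559) and ENSBTAG00000000950 (0.511). Their log2 differences between planes had medians of -1.28 in pituitary, -0.85 in arcuate and -0.52 in testes libraries. ENSBTAG00000000950 was nearly level, at -0.09 in the pituitary and -0.05 in the arcuate nucleus. None of the 4 was called at an FDR below 0.05 in any tissue, and 0.493% of genes tested were called lower in the pituitary. The first 5 genes of each list depended on how likeness was measured, as 0 to 3 of them were found again with ranks, within 1 tissue or with the library score removed.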

How the data were processed

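Single-end mRNA libraries were made from frozen arcuate nucleus, anterior pituitary and testes. The authors deposited, for each library, raw read counts per Ensembl gene without normalization. The submitters' processing notes name CASAVA 1.4, STAR, HTSeq and edgeR, and the genome build and annotation are not given in the sources used here. The authors removed 3 libraries with few reads. Groups follow the tissue and diet labels. The genes and the planned gene lists were chosen with earlier results of these data known, and the lists could not be used without gene names.

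The fits were made with edgeR 4.0.16 in R 4.3.3 (default expression filter, TMM, quasi-likelihood fit, FDR threshold 0.05), with 1 fit per tissue for diet and 1 fit over 57 libraries for tissues and for the CPM values. Deviations used log2 CPM with a prior count of 2, and the 5 most alike genes were named for each gene. The ratio was tested as a log2 value after adding 0.5 to both counts, by permutation in Python 3.11.15 with scipy 1.17.1. The fits were run on simulated counts, drawn independently for each library around a common mean profile with planted differences. These counts lacked the separate score sets and the shared calves, so they could not test the fits under either. Alternatives used DESeq2 1.42.0, limma 3.58.1, other filters and scalings, covariates, and libraries left out. Within a tissue each library is from another calf, the tissues share calves, and depth sets the precision of low counts.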

Additional observations from a re-analysis of the deposited data

Results flagged for a closer look

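The level of ENSBTAG00000016746 in the anterior pituitary of high plane library A57 was 1.358 on the log2 CPM scale and the nearest of the other 8 libraries was at 2.262, a gap of 0.57 of the range of the 9 libraries. This is past the 95% critical value of Dixon's test. It was 1 of 18 groups of values searched, of which chance would give 0.9. Library A57 had 12 reads of the gene and a library score of -1.68, in the lower set, and the part of the score in this value was not tested. For ENSBTAG00000002444 the same library lay at 23.6 CPM, close to the group's median of 23.3.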

How the results depend on the processing

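All diet differences kept their sign under each alternative run, and all tissue and ratio differences kept their direction and their side of the threshold. Leaving out 1 library at a time, the log2 difference between planes (low minus high) of ENSBTAG00000002444 ran from -1.64 to -1.24 in the arcuate nucleus, -2.12 to -1.74 in the pituitary and -0.59 to -0.41 in the testes. That of ENSBTAG00000016746 ran from -1.34 to -1.08, -2.26 to -1.70 and -0.79 to -0.59. Over the other alternatives, in the same order, the ranges were -1.60 to -1.33, -1.95 to -1.75 and -0.61 to -0.39, and -1.67 to -1.08, -2.13 to -1.73 and -0.73 to -0.56. Those leaving out libraries by score, by pituitary genes in the arcuate nucleus, or A27 and C44, and the ratio itself, were chosen after seeing the data. With library totals in place of TMM, the median log2 difference of all genes moved from 0.0726 to -0.19 between pituitary and arcuate nucleus, from -0.00655 to 0.32 between testes and pituitary and from 0.104 to 0.17 between testes and arcuate nucleus, and both genes stayed higher in the first tissue, by 1.69 or more, 1.395 or more and 3.10 or more. Without the 3 arcuate libraries C22, C34 and C28, the ratio differed between pituitary and arcuate nucleus by 0.30 on the log2 scale (permutation test, adjusted p = 0.0997). A filter of CPM above 1 in every library removed both genes in the arcuate nucleus and in the fit of all tissues and ENSBTAG00000016746 in the pituitary, and gave no value for these. No paired analysis was possible because the labels give each library its own number and do not tie libraries to calves. Depth limits ENSBTAG00000016746 in the arcuate nucleus.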
